A study of Mus musculus with 23 samples.

Results

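The genes described here are 36 genes of the cell division cycle: cyclins and their kinases, the inhibitors of those kinases, DNA replication factors, enzymes of nucleotide supply, and genes of mitosis. They were taken by name from a list, and all 36 were found in both deposited tables, out of 26522 genes listed in either table. The tables hold RNA-seq read counts per gene from 23 mouse livers, 1 table per sex. LKO animals had a liver ablation of Cpt1a, which encodes a rate-limiting enzyme of mitochondrial fatty acid oxidation, and controls kept the gene.

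There were 5 males and 6 females among the controls, and 6 of each sex among the LKO animals, which makes 4 groups. All 23 animals carried the B100 background, ate a diet labelled WD for 16 weeks and were fed when killed. The driver of the ablation and the ages are not given in the sources used here, and the labels do not say whether animals shared a litter or cage. Control males bear the numbers 1, 2, 3, 4 and 6, and every other group the numbers 1 to 6.

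Most hepatocytes of an adult liver rest outside the cycle, and the liver is known for returning to it after loss of tissue. Entry runs through D cyclins with Cdk4, which release E2F factors from the retinoblastoma protein, and E2F factors then switch on the genes of DNA synthesis, among them the Mcm helicase. Mitotic genes such as Ccnb1, Cdk1 and Plk1 come on later, under the DREAM, B-Myb and FoxM1 complexes, and inhibitors such as p21, the product of Cdkn1a and a target of p53, hold the kinases back.

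Total counts per liver lay between 14224665 and 18361717 for control males and between 15370271 and 16689307 for LKO males, and the females gave 15174756 to 17129450 (controls) and 15434065 to 19626662 (LKO). The 8 hepatocyte markers checked, among them Alb, had counts in every group and summed to 56231 to 100743 CPM (read counts scaled to the library total) per liver. Cpt1a itself was 362 ± 51.0 CPM in control males (SD, n = 5) and 63.9 ± 20.3 CPM in LKO males (SD, n = 6), and 383 ± 57.8 and 75.0 ± 8.54 CPM in females (SD, n = 6 each). Neither sex's groups overlapped in Cpt1a. The two-sided exact permutation p, with the smaller tail doubled, was 0.00433 in males and 0.00216 in females, the smallest this test can give there.

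The 36 genes together took a small share of the reads. It was 0.0244 ± 0.00649 percent in control males (SD, n = 5), 0.0298 ± 0.00771 percent in LKO males (SD, n = 6), 0.0255 ± 0.00525 percent in control females and 0.0317 ± 0.00689 percent in LKO females (SD, n = 6 each). The group ranges overlapped within each sex. Ccnb1, Cdc6 and Bub1 averaged under 10 counts in both tables and are near the floor, at 9.64, 8.45 and 3.36 counts in the male table and 7.0, 7.5 and 1.25 counts in the female table. Just above that limit lay Kif11, with 10.5 counts in the male table and 12.9 in the female. After the filter on low counts, 32 of the 36 were tested in males, without Ccnb1, Cdc6, Bub1 and Kif11, and 33 in females, without Ccnb1, Cdc6 and Bub1.

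Per transcript length, Cdk4 had the highest mean in each of the 4 groups, at 16.0 ± 2.48 FPKM (fragments scaled to transcript length and library total) in control males (SD, n = 5), followed there by Pcna at 8.14 ± 0.814, Cdkn1a at 5.34 ± 2.96 and Ccnd1 at 4.78 ± 1.79 FPKM. Cdkn1a and Ccnd1 did not differ beyond their spread in that order. In control females Cdk4 was at 14.4 ± 0.930, Ccnd1 at 11.5 ± 6.59 and Pcna at 9.10 ± 0.772 FPKM (SD, n = 6). Bub1, a kinase of the spindle checkpoint, was lowest in each group, at 0.0446 ± 0.0382 FPKM in control males (SD, n = 5) and 0.0143 ± 0.0159 FPKM in control females (SD, n = 6). Mki67, whose Ki-67 protein marks cycling cells, stood at 0.193 ± 0.163 FPKM in control males (SD, n = 5) and 0.203 ± 0.106 FPKM in control females (SD, n = 6).

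**Figure D1:**
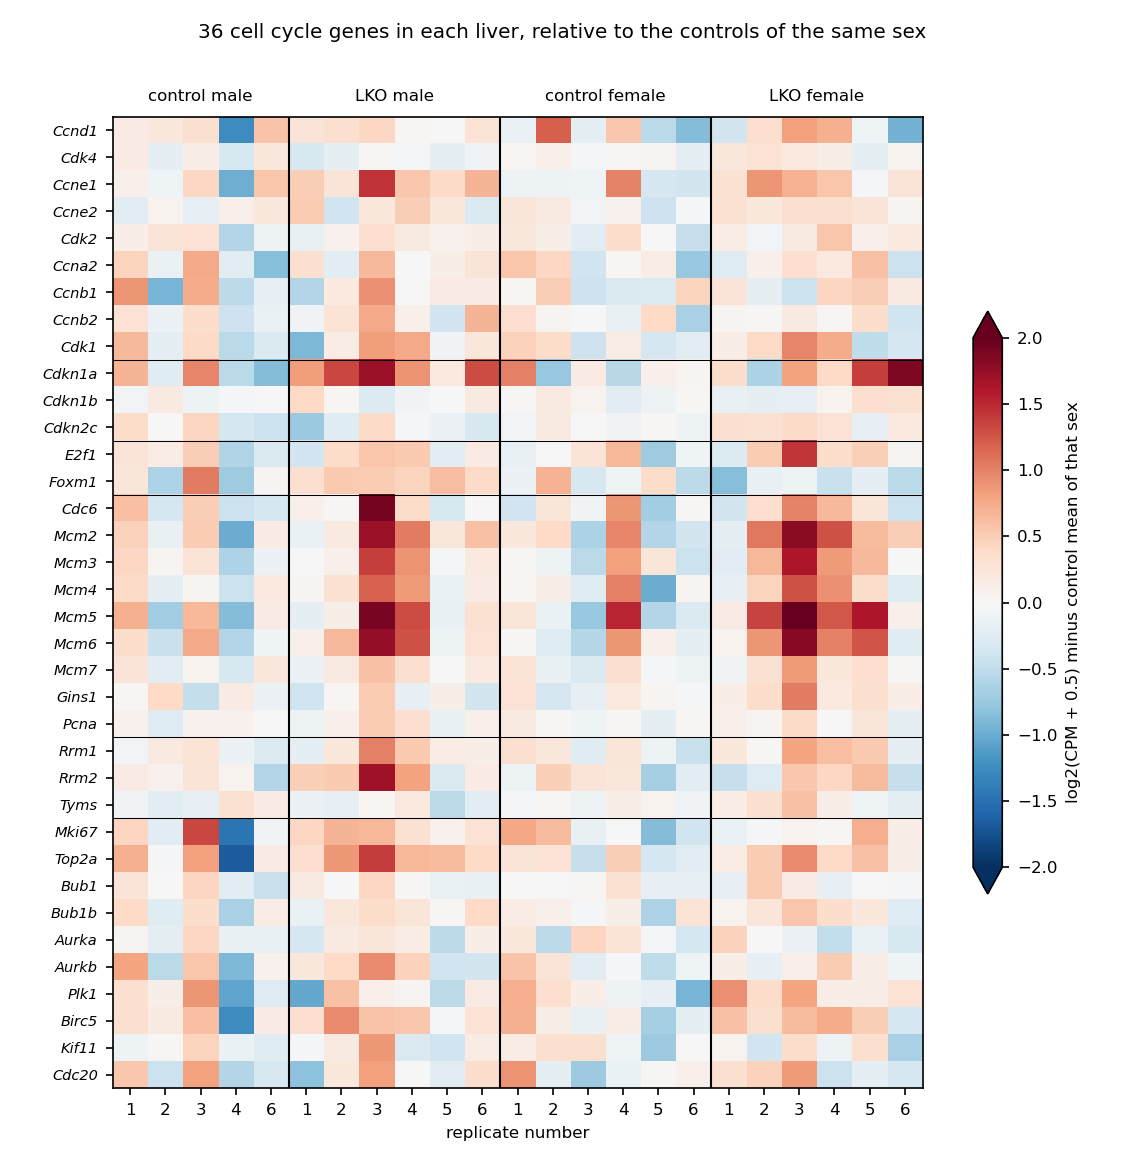
Each row is 1 of the 36 genes, grouped by role between the horizontal lines, and each column 1 liver with its replicate number. Colour gives log2(CPM + 0.5) minus the control mean of that sex, and the Mcm rows are darkest red in replicate 3 of both LKO groups.

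No cell cycle gene passed the test between LKO and control livers in either sex. In males 0 of 32 tested were called by edgeR's quasi-likelihood test at an adjusted p under 0.05, against 0.00724 percent of all 13805 genes tested (1 gene, Cpt1a). In females 0 of 33 were called, against 1.42 percent of 13684 (194 genes). DESeq2 also called 0 in each sex, where it called 0.826 percent of all genes in males and 4.09 percent in females. The adjusted p in the authors' deposited table was under 0.05 for 0 of 36 in either sex. Its lowest values were 0.0935 for Cdkn1a in males and 0.0756 for Mcm6 in females. In males it stood at its upper limit for 30 of the 36, and in females for 1. Such an entry can stand for a missing value, so for those genes the deposited column gives no separate check.

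Short of that threshold, most of the genes lay on the higher side in LKO livers. On the log2 scale the change was above 0 for 26 of 32 in males, where 52.1 percent of all genes lay above 0, and for 30 of 33 in females, against 51.1 percent. The median log2 fold change of the tested genes was 0.21 in males and 0.28 in females, beside 0.01 and 0.01 over all genes tested. At an unadjusted p under 0.05, the males gave 2 genes, Cdkn1a and Rrm2, or 6.25 percent of those tested, where all genes gave 12.5 percent. The females gave 8, or 24.2 percent, where all genes gave 15.6 percent: Mcm6, Mcm2, Mcm5, Cdkn2c, Gins1, Mcm3, Cdkn1a and Top2a. Each of these was higher in LKO livers, a direction in which 5.23 percent of all genes passed in males and 8.31 percent in females.

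Those counts depended on single livers. Without LKO female replicate 3, Mcm6 was the 1 gene in females past that p in place of 8, and the median log2 fold change was 0.16 in place of 0.28. Without LKO male replicate 3 the median in males was 0.12 in place of 0.21, and Cdkn1a was the 1 gene past an unadjusted p of 0.05. Over all fits that left out 1 liver, that count was 1 to 5 in males and 1 to 10 in females. The log2 fold change of single genes moved by over 1.5 times, or changed sign, in at least 1 such fit for 31 of 32 in males, the exception being Cdkn1a, and for 25 of 33 in females. No tested gene had groups that did not overlap, where 1.77 percent of all genes in males and 1.59 percent in females had such groups. In bulk liver RNA, fewer cells of a type and less RNA per cell cannot be told apart.

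**Figure D2:**
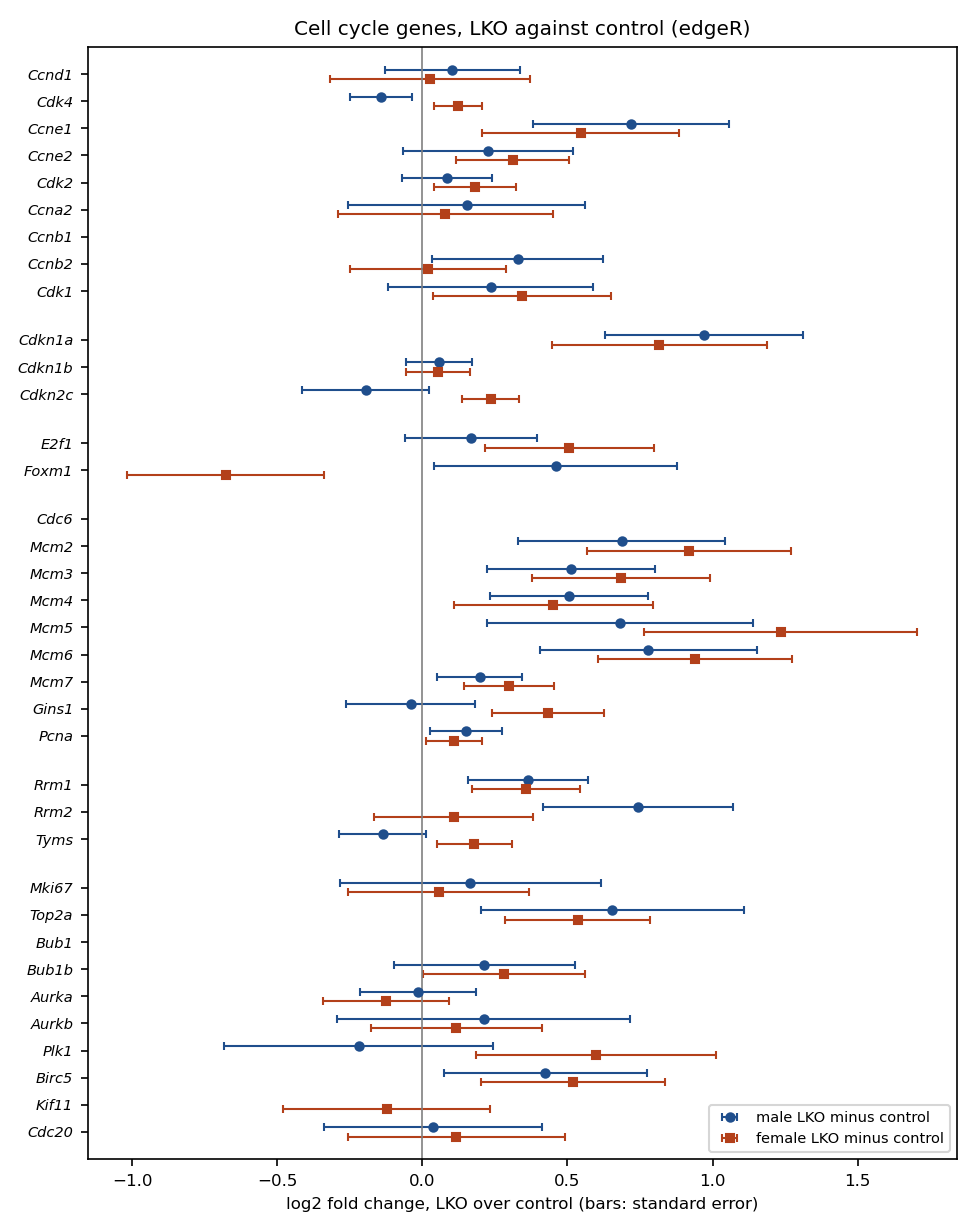
Points give the log2 fold change of each tested gene, LKO over control, in males (circles) and females (squares), with the standard error as bars. Most points lie right of 0, Cdkn1a furthest in males at 0.97 and Mcm5 furthest in females at 1.23, and Foxm1 lies left of 0 in females.

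Of the cyclins and kinases, Cdk4, the kinase of G1, and Ccnd1, the gene of cyclin D1, carried the most counts. Cdk4 was 52.8 ± 8.45 CPM in control males (SD, n = 5) and 47.9 ± 4.27 CPM in LKO males (SD, n = 6), and 46.6 ± 3.13 and 50.8 ± 5.79 CPM in the female groups (SD, n = 6 each). Its log2 fold change was -0.14 (SE 0.11) in males and 0.12 (SE 0.08) in females, with edgeR adjusted p of 0.625 and 0.523. Its groups overlapped in both sexes.

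Ccnd1 (ENSMUSG00000070348) spread widely between livers. In control males it was 23.7, 24.5, 26.4, 8.58 and 31.5 CPM in replicates 1, 2, 3, 4 and 6, the order kept for the control males from here on, and in LKO males it ran from 21 through a median of 25.4 to 28.4 CPM. In control females it ran from 25.9 through 42.8 to 109.8 CPM, and in LKO females from 24.5 through 52.7 to 84.6 CPM. Control male replicate 4 was far below the other males, and control female replicate 2 was the highest liver of all. LKO over control, the log2 ratio was 0.10 (SE 0.23, adjusted p 0.901 by edgeR) in males and 0.03 (SE 0.34, adjusted p 0.985) in females, and the male value was -0.10 once control male replicate 4 was left out.

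Ccne1, the gene of cyclin E1, which drives entry into S phase with Cdk2, had the lowest p of the cyclins in each sex. In control males it was 1.76, 1.49, 2.29, 0.566 and 2.57 CPM, and in LKO males it ran from 2.02 through 2.50 to 5.21 CPM. All 6 LKO males lay above the control mean of 1.74 CPM, and 2 lay above the highest control. The log2 fold change was 0.72 (SE 0.34, adjusted p 0.407 by edgeR). In females Ccne1 ran from 0.582 through 0.795 to 2.25 CPM in controls and from 0.850 through 1.38 to 2.05 CPM in LKO livers, or a log2 ratio of 0.55 (SE 0.34, adjusted p 0.471). It was 0.47 in males without LKO male replicate 3, and 0.98 in females without control female replicate 4, the liver at 2.25 CPM.

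The kinase that starts mitosis, Cdk1, was 4.14, 2.08, 3.38, 1.54 and 1.93 CPM in control males and ran from 1.09 through 2.89 to 4.80 CPM in LKO males. The LKO males held both the lowest and the highest value. In females it ran from 1.35 through 1.94 to 2.91 CPM in controls and from 1.25 through 2.49 to 4.35 CPM in LKO livers. On the log2 scale the change was 0.24 (SE 0.35, adjusted p 0.847 by edgeR) in males and 0.34 (SE 0.31, adjusted p 0.654) in females. Without LKO male replicate 3 the male value was 0.0763, and without LKO female replicate 3 the female value was 0.14. Its partner Ccnb1, the gene of cyclin B1, was too low to test: 0 to 20 counts in control males, 2 to 22 in LKO males, 2 to 12 in control females and 2 to 13 in LKO females. Ccne2, Cdk2, Ccna2 and Ccnb2 had log2 fold changes of 0.23, 0.08, 0.15 and 0.33 in males and 0.31, 0.18, 0.08 and 0.02 in females, none called. Without single livers Ccna2 changed sign in both sexes, Cdk2 in males and Ccnb2 in females.

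Among the inhibitors, Cdkn1a (ENSMUSG00000023067, chromosome 17, 29309950 to 29319701, plus strand, on mm39 as the tables give it) had the lowest p of the 36 genes in males. It was 27.6, 14.4, 34.1, 11.7 and 9.13 CPM in control males, a mean of 19.4 ± 10.9 (SD, n = 5), and ran from 19.7 through 37.6 to 58.0 CPM in LKO males, a mean of 38.0 ± 13.2 (SD, n = 6). All 6 LKO males were above the control mean and 3 were above the highest control. LKO over control, the log2 ratio was 0.97 (SE 0.34, adjusted p 0.303 by edgeR), with adjusted p from 0.0897 by DESeq2 upward over the alternatives. In females it ran from 7.16 through 13.1 to 25.3 CPM in controls and from 7.80 through 19.3 to 46.4 CPM in LKO livers, or a log2 ratio of 0.82 (SE 0.37, adjusted p 0.304), with 5 of 6 LKO females above the control mean. In females it was 0.51 without LKO female replicate 6, the highest of them.

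The group means of Cdkn1b, the gene of p27, ran from 15.9 ± 1.27 CPM in control males (SD, n = 5) to 16.6 ± 2.90 CPM in LKO females (SD, n = 6). Cdkn2c, the gene of p18, which inhibits Cdk4 and Cdk6, was 8.06 ± 2.33 CPM in control males (SD, n = 5) and 7.04 ± 1.94 CPM in LKO males (SD, n = 6), or a log2 ratio of -0.20 (SE 0.22, adjusted p 0.775 by edgeR). In females it was 12.2 ± 0.921 in controls and 14.4 ± 1.89 CPM in LKO livers (SD, n = 6 each), with 5 of 6 LKO livers above every control. Its log2 fold change in females was 0.24 (SE 0.10, adjusted p 0.260 by edgeR).

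**Figure D3:**
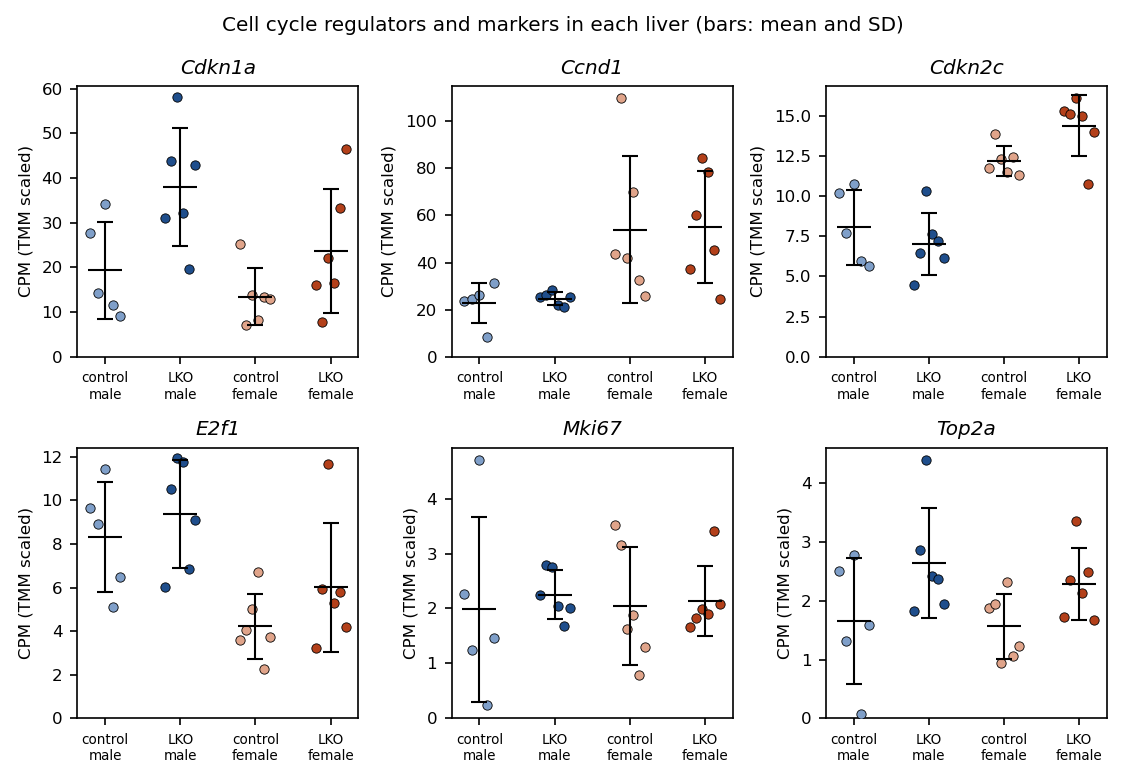
Points are single livers in TMM-scaled CPM, and bars give the mean and SD of each group of 5 or 6. Cdkn1a overlaps between genotypes in both sexes, and for Cdkn2c every female liver lies above every male liver.

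The pair of transcription factors gave unlike values. E2f1, which turns on S-phase genes, was 8.33 ± 2.54 CPM in control males (SD, n = 5) and 9.37 ± 2.49 CPM in LKO males (SD, n = 6), or a log2 ratio of 0.17 (SE 0.23, adjusted p 0.821 by edgeR) that was 0.0398 without control male replicate 4. In females it was 4.23 ± 1.50 and 6.02 ± 2.95 CPM (SD, n = 6 each), a log2 ratio of LKO to control of 0.51 (SE 0.29, adjusted p 0.434) that was 0.21 without LKO female replicate 3. Foxm1, which turns on mitotic genes, was 0.847 ± 0.706 CPM in control males (SD, n = 5) and 1.18 ± 0.127 CPM in LKO males (SD, n = 6), or a log2 ratio of 0.46 (SE 0.42, adjusted p 0.702), which was 0.25 when replicate 2 of the control males was left out and 1.05 when their replicate 3 was. In females it was 1.03 ± 0.513 and 0.649 ± 0.216 CPM (SD, n = 6 each), a log2 ratio of LKO to control of -0.68 (SE 0.34, adjusted p 0.353 by edgeR), with 6 of 6 LKO females below the control mean, and it was -0.41 without control female replicate 2.

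The genotype differences were compared between the sexes by an interaction term, females minus males. It called 0 of 35 cell cycle genes and 0.0 percent of all 14503 genes tested with edgeR. At an unadjusted p under 0.05 it gave 1 of the 35, where all genes gave 12.9 percent, and DESeq2 called 0 of the 35 against 0.669 percent of all genes. The 1 gene past the unadjusted p was Foxm1, with a log2 difference of -1.14 (SE 0.55, edgeR unadjusted p 0.0494, adjusted p 0.385). For the Mcm genes 2 to 7 the interaction ran from -0.05 to 0.55, with edgeR adjusted p of 0.789 to 0.974.

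The Mcm2 to Mcm7 genes, whose products form the ring helicase that is loaded at replication origins in G1, were the bulk of the replication licensing group, which had the largest median log2 fold change of the 6 roles, 0.51 in males and 0.57 in females. Mcm2 (ENSMUSG00000002870, chromosome 6, 88860456 to 88875762, minus strand, mm39) was 8.91, 5.64, 9.23, 2.91 and 7.14 CPM in control males, and ran from 5.70 through 8.58 to 22.1 CPM in LKO males. In females Mcm2 ran from 2.50 through 4.01 to 8.64 CPM in controls and from 3.56 through 7.92 to 15.8 CPM in LKO livers. Its log2 fold change was 0.69 (SE 0.36, adjusted p 0.454 by edgeR) in males and 0.92 (SE 0.35, adjusted p 0.218) in females. In both sexes 5 of 6 LKO livers were above the control mean and 3 were above the highest control.

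Mcm5 (ENSMUSG00000005410, chromosome 8, 75836197 to 75855067, plus strand, mm39) was 6.78, 2.26, 6.58, 1.94 and 4.50 CPM in control males and ran from 3.39 through 4.66 to 16.0 CPM in LKO males. It ran from 1.49 through 2.42 to 9.14 CPM in control females and from 3.09 through 7.75 to 17.3 CPM in LKO females. The control value of 9.14 was that of replicate 4, and the other 5 control females were at 3.45 CPM or lower. The log2 fold change was 0.68 (SE 0.46, adjusted p 0.572 by edgeR) in males and 1.23 (SE 0.47, adjusted p 0.219) in females. Without control female replicate 4 it was 1.81 in females, with an adjusted p of 0.0437, the 1 call of any of the 36 genes under any alternative for LKO against control. Over the alternatives for Mcm5 in females the adjusted p ran from 0.0437 to 0.423.

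Mcm6 (ENSMUSG00000026355, chromosome 1, 128259327 to 128287401, minus strand, mm39) had the lowest p of the 36 genes in females. It was 6.21, 3.33, 8.39, 2.99 and 4.45 CPM in control males, from 4.37 through 6.78 to 17.2 CPM in LKO males, from 3.45 through 5.02 to 10.3 CPM in control females and from 4.45 through 10.8 to 20.3 CPM in LKO females. On the log2 scale the change was 0.78 (SE 0.37, adjusted p 0.417 by edgeR) in males and 0.94 (SE 0.33, adjusted p 0.179) in females. In males 5 of 6 LKO livers, and in females 4 of 6, lay above the control mean. Mcm3, Mcm4 and Mcm7 had log2 fold changes of 0.51, 0.51 and 0.20 in males and 0.68, 0.45 and 0.30 in females, with edgeR adjusted p of 0.469 to 0.619 in males and 0.296 to 0.575 in females. The median over the Mcm genes 2 to 7 was 0.60 in males and 0.80 in females.

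The same livers were high for the whole helicase. LKO male replicate 3 was the highest of the 11 male livers, and LKO female replicate 3 the highest of the 12 female livers, for 6 of 6 Mcm genes. They were also highest for 20 and 17 of the 33 genes that are above the floor. Control male replicate 4 was the lowest male liver for 6 of 6 Mcm genes and for 19 of the 33, and control female replicate 3 was the lowest female liver for 5 of 6 Mcm genes. Control male replicate 4 also had the fewest total counts of the male livers, 14224665. Its genes with counts were the fewest too, 18232 where the other males had 19209 to 20025. The part of depth in its low values was not tested. Summed, Mcm2 to Mcm7 came to 40.7 ± 11.5 CPM in control males (SD, n = 5), 57.6 ± 25.5 in LKO males, 37.0 ± 13.4 in control females and 59.3 ± 26.1 CPM in LKO females (SD, n = 6 each). The sums ran from 25.4 to 52.2 CPM in control males against 37.1 to 103 in LKO males, and from 24.8 to 62.6 in control females against 33.1 to 106 CPM in LKO females, so they overlapped.

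Without LKO male replicate 3 the median log2 fold change of the Mcm genes 2 to 7 was 0.29 in males, and without LKO female replicate 3 it was 0.53 in females. All 6 stayed above 0 in every fit that left out 1 liver, in both sexes. Markers of other cell types were in part alike and in part unlike between these livers. In LKO male replicate 3 the summed markers of stellate cells and fibroblasts, of cholangiocytes, of macrophages and of dendritic cells were the highest of the 11 male livers, at 525, 166, 800 and 11.9 CPM, and the hepatocyte sum was the lowest, at 56231 CPM. In LKO female replicate 3 the stellate cell and cholangiocyte sums ranked 2nd and 3rd of 12, at 388 and 67.0 CPM. Its hepatocyte sum was 11th of 12, at 64129 CPM, and its macrophage and dendritic cell sums ranked 7th and 8th, at 794 and 6.90 CPM. The endothelial and erythroid sums both ranked 10th of 11 in LKO male replicate 3, at 182 and 393 CPM. In LKO female replicate 3 they ranked 11th and 12th of 12, at 174 and 197 CPM. In control male replicate 4 the stellate cell, cholangiocyte and dendritic cell sums were the lowest of 11, at 213, 34.2 and 3.80 CPM, while the macrophage sum, at 720 CPM, and the hepatocyte sum, at 83210 CPM, were each the second highest. In control female replicate 3 the cholangiocyte sum was the lowest of 12, at 41.5 CPM, and the macrophage and dendritic cell sums were each the third highest, at 944 and 8.86 CPM. Their part in the values of the Mcm genes was not tested.

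**Figure D4:**
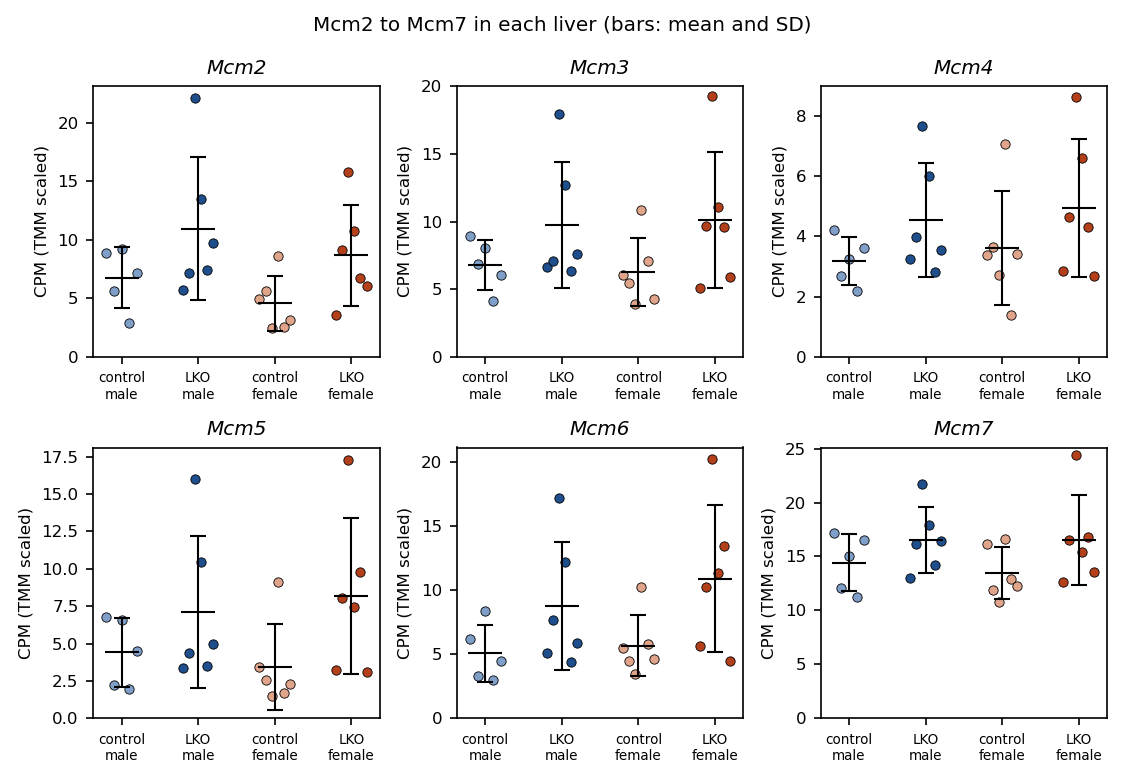
Points are single livers in TMM-scaled CPM, and bars give the mean and SD of each group of 5 or 6. In each panel the highest male and the highest female liver belong to the LKO groups (replicate 3 of each). LKO male replicate 4 also lies above every control male in each panel, and other LKO livers lie above every control of their sex in some panels. The group ranges overlap in each panel.

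Of 10 marker lists for liver cell types, summed per liver, 10 overlapped between LKO and control males and 9 between LKO and control females. The exception was the cholangiocyte list, which ran from 41.5 to 51.4 CPM in control females and from 52.0 to 88.1 CPM in LKO females. All 6 of its markers lay above 0 there, with a median log2 fold change of 0.28 and a highest of 0.66. So did all tested markers of the stellate, T and NK, B and plasma, neutrophil, dendritic and erythroid lists. Their medians were 0.30, 0.53, 0.49, 0.23, 0.25 and 0.50 in that order. In the hepatocyte, macrophage and endothelial lists 2 of 8, 5 of 10 and 1 of 6 lay above 0. Taken singly, 1 of the 6 cholangiocyte markers had groups that did not overlap, where 1.59 percent of all genes in females had such groups. A sum is weighted to its most abundant markers, and the part of each marker in it was not tested. The stellate cell list ran from 213 to 493 CPM in control males, 235 to 525 in LKO males, 221 to 280 in control females and 210 to 397 CPM in LKO females. The macrophage list ran from 358 to 720, 524 to 800, 525 to 944 and 689 to 972 CPM in the same order. Single markers called by edgeR were Trem2, a receptor of macrophages, and Spp1, the gene of osteopontin, which belongs to the cholangiocyte list. Both were higher in LKO females, and none was called in males. They were 1 of 10 tested in the macrophage list and 1 of 6 in the cholangiocyte list. Over all genes edgeR called 1.42 percent in females and 0.00724 percent in males. DESeq2 also called Cd8a of the T and NK cell list and Col3a1 of the stellate cell list in females, and none in males. Those lists had 6 and 8 markers tested in females. Over all genes DESeq2 called 4.09 percent in females and 0.826 percent in males. Of the markers in the tables, Ly6g of the neutrophil list was at 0 in all control females, and no other marker was at 0 throughout a group.

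The promoters of 4 cell cycle genes are shown because the same livers were high for the Mcm genes and because Cdk1 and Top2a represent the mitotic group. They are the 180 bases before the RefSeq start on GRCm38.p6, 5′ to 3′ on the strand of the gene, and capitals mark matches on either strand to CCAAT, to TTTGAA or TTCGAA, or to TTTCCCGC, TTTGGCGC or TTTCGCGC. The first is the box bound by NF-Y, the next pair are forms of the cell cycle homology region bound by DREAM, B-Myb and FoxM1 complexes, and the last are forms of the E2F site.
Mcm6 (chr1:128359706-128359885, minus strand): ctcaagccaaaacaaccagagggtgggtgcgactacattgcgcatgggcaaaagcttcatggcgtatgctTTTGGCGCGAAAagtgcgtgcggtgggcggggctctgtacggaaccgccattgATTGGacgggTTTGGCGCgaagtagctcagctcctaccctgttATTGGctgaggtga
Mcm5 (chr8:75109329-75109508, plus strand): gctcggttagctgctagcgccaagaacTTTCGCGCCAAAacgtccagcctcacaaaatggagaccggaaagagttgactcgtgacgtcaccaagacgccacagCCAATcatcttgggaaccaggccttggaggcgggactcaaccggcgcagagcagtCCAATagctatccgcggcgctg
Cdk1 (chr10:69352913-69353092, minus strand): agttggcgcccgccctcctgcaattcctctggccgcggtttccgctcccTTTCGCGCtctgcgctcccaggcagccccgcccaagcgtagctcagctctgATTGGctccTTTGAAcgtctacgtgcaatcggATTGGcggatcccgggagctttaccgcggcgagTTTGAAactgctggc
Top2a (chr11:99024190-99024369, minus strand): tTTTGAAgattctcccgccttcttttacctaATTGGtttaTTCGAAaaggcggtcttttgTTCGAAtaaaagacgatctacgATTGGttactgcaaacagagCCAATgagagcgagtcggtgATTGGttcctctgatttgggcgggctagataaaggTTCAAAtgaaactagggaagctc

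The Mcm6 window held 3 matches to E2F forms, of which 1 pair overlaps on opposite strands, and 2 CCAAT matches. Mcm5 held 2 overlapping E2F matches and 2 CCAAT matches. Cdk1 held 1 E2F match, 2 matches to TTTGAA and 2 to CCAAT, and Top2a held no E2F match, 4 to CCAAT, 2 to TTTGAA and 2 to TTCGAA. Of the 36 genes, 29 matched an entry of the RefSeq promoter table, and Ccnd1, Ccne2, Ccna2, Foxm1, Mcm4, Gins1 and Aurkb did not. In the 250 bases before the start, CCAAT lay in at least 1 promoter of 21 of the 29 genes (72.4 percent) and of 37.5 percent of all 27025 genes in that table, whose 32851 promoters held it in 33.8 percent. Any of the E2F forms lay in 6 of 29 genes (20.7 percent), in 1.78 percent of all genes and in 1.53 percent of all promoters. Those 6 were Cdc6, Cdk1, Cdk2, Mcm5, Mcm6 and Mcm7. Mcm2 and Mcm3, high in the same livers, had promoters there without any of these forms. TTTGAA or TTCGAA lay in 9 of 29 genes (31.0 percent), in 19.6 percent of all genes and in 17.1 percent of all promoters. A match is a run of letters, not a bound site.

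The other genes of replication licensing are Pcna, Gins1 and Cdc6. Pcna, the sliding clamp of DNA polymerase, was 21.1, 16.5, 20.9, 21 and 19.8 CPM in control males and ran from 17.9 through 21.3 to 28.5 CPM in LKO males. It ran from 19.1 through 22.1 to 24.7 CPM in control females and from 19 through 23 to 28.6 CPM in LKO females, so the 4 groups overlapped. Its log2 fold change was 0.15 (SE 0.12, adjusted p 0.665 by edgeR) in males and 0.11 (SE 0.10, adjusted p 0.645) in females. Gins1, which belongs to the active helicase with the Mcm ring, had a log2 fold change of -0.04 (SE 0.22, adjusted p 0.964 by edgeR) in males and 0.43 (SE 0.19, adjusted p 0.294) in females, where 6 of 6 LKO livers lay above the control mean. Cdc6, which loads the ring, was too low to test, at 1 to 11 counts in control males, 2 to 42 in LKO males, 0 to 16 in control females and 2 to 18 in LKO females. Its 42 counts belonged to LKO male replicate 3.

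For nucleotide supply, Rrm2, the regulated subunit of ribonucleotide reductase, was the other gene past an unadjusted p of 0.05 in males. It was 4.27, 4.04, 4.59, 3.96 and 2.34 CPM in control males and ran from 3.0 through 5.51 to 13.2 CPM in LKO males, with 4 of 6 LKO livers above every control. LKO over control, the log2 ratio was 0.74 (SE 0.33, adjusted p 0.378 by edgeR), and 0.41 without LKO male replicate 3. In females Rrm2 was 3.02 ± 0.931 and 3.26 ± 1.30 CPM (SD, n = 6 each), a log2 ratio of LKO to control of 0.11 (SE 0.27, adjusted p 0.898). Rrm1, the large subunit, had a log2 fold change of 0.36 in both sexes (SE 0.21 in males and 0.19 in females, edgeR adjusted p 0.494 and 0.374). Tyms, the gene of thymidylate synthase, had -0.14 (SE 0.15) in males and 0.18 (SE 0.13) in females, with edgeR adjusted p of 0.770 and 0.546.

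The 10 genes of mitosis and proliferation had low counts, and their groups overlapped in both sexes. Summed, they came to 15.2 ± 7.35 CPM in control males (SD, n = 5), 17.3 ± 4.75 in LKO males, 12.8 ± 3.61 in control females and 14.6 ± 2.58 CPM in LKO females (SD, n = 6 each). Mki67 was 2.26, 1.25, 4.71, 0.243 and 1.46 CPM in control males and ran from 1.69 through 2.14 to 2.80 CPM in LKO males. The control males thus held both the lowest and the highest Mki67 of the male livers. In females Mki67 ran from 0.796 through 1.75 to 3.52 CPM in controls and from 1.66 through 1.94 to 3.40 CPM in LKO livers. Its log2 fold change was 0.17 (SE 0.45, adjusted p 0.924 by edgeR) in males and 0.06 (SE 0.31, adjusted p 0.957) in females. Leaving out control male replicate 4 turned the male value to -0.10, and leaving out control male replicate 3 gave 0.77.

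Top2a, the topoisomerase that untangles chromosomes, was 2.51, 1.31, 2.78, 0.0809 and 1.58 CPM in control males and ran from 1.83 through 2.40 to 4.39 CPM in LKO males. It ran from 0.946 through 1.55 to 2.32 CPM in control females and from 1.67 through 2.24 to 3.35 CPM in LKO females. In both sexes 6 of 6 LKO livers were above the control mean. The log2 fold change was 0.65 (SE 0.45, adjusted p 0.586 by edgeR) in males and 0.54 (SE 0.25, adjusted p 0.318) in females. In males it was 0.37 without control male replicate 4, the liver at 0.0809 CPM.

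Of the rest of this group, Birc5, the gene of survivin, had log2 fold changes of 0.42 (SE 0.35) in males and 0.52 (SE 0.32) in females. Plk1, a kinase of mitotic entry, had -0.22 (SE 0.46) in males and 0.60 (SE 0.41) in females. Bub1b, Aurkb and Cdc20, which act in chromosome attachment and the spindle checkpoint, lay between 0.04 and 0.21 in males and between 0.12 and 0.28 in females. Aurka, a spindle kinase, had -0.02 and -0.13, and Kif11, a spindle motor, had -0.12 in females. EdgeR adjusted p of these genes ran from 0.461 for Birc5 in females to 0.985 for Aurka in males. Bub1 had at most 7 counts in any liver.

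The controls of the 2 sexes were compared too, and 3 of 33 cell cycle genes (9.09 percent) were called, against 18 percent of all 13699 genes tested. Cdkn2c was higher in females, at 12.2 ± 0.921 CPM (SD, n = 6) against 8.06 ± 2.33 CPM in males (SD, n = 5), a log2 difference of 0.63 (SE 0.16, adjusted p 0.0167 by edgeR). Its groups did not overlap, but the share of all genes with such groups was not counted for this comparison. Ccnd1 was higher in females, at 54.0 ± 31.2 against 22.9 ± 8.59 CPM (SD, n = 6 and 5), a log2 difference of 1.27 (SE 0.38, adjusted p 0.0332 by edgeR). E2f1 was lower in females, at 4.23 ± 1.50 against 8.33 ± 2.54 CPM (SD, n = 6 and 5), a log2 difference of -0.94 (SE 0.26, adjusted p 0.0230 by edgeR). Ccnd1 lost its call in 5 of 11 fits that left out 1 control and E2f1 in 3 of 11, while Cdkn2c kept it in all 11 and lost it with library size alone (adjusted p 0.0605). Each sex has its own deposited table, and effects of table and sex cannot be told apart.

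Other genes of the cycle were read from 5 lists with 155 genes that are not among the 36. Of 34 genes of replication and S phase, edgeR called 0 of 30 tested in males and 1 of 29 in females, with 3 and 7 past an unadjusted p of 0.05. DESeq2 called 0 in males and 2 in females, Gins2 and Ung. Over all genes, edgeR called 0.00724 percent in males and 1.42 percent in females, 12.5 and 15.6 percent were past the unadjusted p, and DESeq2 called 0.826 and 4.09 percent. As shares, the 3 and 7 genes were 10 and 24.1 percent of those tested. Groups that did not overlap were found for 1.59 percent of all genes in females. The gene called by edgeR was Ung, the uracil-DNA glycosylase of base excision repair, which rose in females from 13.7 ± 2.77 to 25.1 ± 3.72 CPM (SD, n = 6 each) with a log2 ratio of LKO to control of 0.87 (SE 0.13, adjusted p 0.00651 by edgeR) with no overlap of the groups. In males Ung was 16.3 ± 2.22 and 17.5 ± 4.40 CPM (SD, n = 5 and 6), or a log2 ratio of 0.10 (SE 0.16, adjusted p 0.857). The difference between the sexes was 0.77 (SE 0.22, adjusted p 0.193 by edgeR). In males the lowest p of this list was that of Cdc45, the partner of the Mcm ring in the active helicase, at 0.86 (SE 0.21, adjusted p 0.245 by edgeR).

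Of 22 genes of inhibitors and p53 targets, 0 of 21 tested were called in males and 2 of 19 (10.5 percent) in females, both higher. DESeq2 called 1 in males, Ccng1, and 4 in females, Ccng1, Phlda3, Eda2r and Bax. Over all genes edgeR called 0.00724 percent in males and 1.42 percent in females, and DESeq2 0.826 and 4.09 percent. Groups did not overlap for 1.59 percent of all genes in females. Phlda3, a p53 target that restrains Akt, rose in females from 3.80 ± 0.824 to 7.94 ± 2.30 CPM (SD, n = 6 each) with a log2 ratio of 1.06 (SE 0.20, adjusted p 0.0156 by edgeR) with no overlap, and the call was lost in a fit of all 23 livers (adjusted p 0.0817). Bax, which opens mitochondria in apoptosis, rose from 29.2 ± 2.15 to 38.1 ± 4.50 CPM, or a log2 ratio of 0.38 (SE 0.09, adjusted p 0.0420 by edgeR), and lost its call in 11 of 12 fits that left out 1 liver. In males Phlda3 had 0.80 (SE 0.33, adjusted p 0.358) and Bax 0.02 (SE 0.12, adjusted p 0.974). Ccng1, another p53 target, had 0.40 (SE 0.09, adjusted p 0.235 by edgeR) in males and 0.29 (SE 0.08, adjusted p 0.0721) in females, and DESeq2 called it in both (adjusted p 0.0127 and 0.0213). Its edgeR and DESeq2 adjusted p over all alternatives was 0.0127 to 0.511 in males and 0.0213 to 0.172 in females. At an unadjusted p under 0.05 this list gave 7 of 21 in males (33.3 percent) and 6 of 19 in females (31.6 percent), beside 12.5 and 15.6 percent of all genes.

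Of the mitosis list, 0 of 24 tested in males and 0 of 23 in females were called by edgeR. Past an unadjusted p of 0.05 were 1 and 3 (4.17 and 13 percent, beside 12.5 and 15.6 percent of all genes). DESeq2 called 0 in males and 1 in females, Nek2. The lowest p belonged to Pttg1, the gene of securin, in males (log2 fold change -0.28, SE 0.08, adjusted p 0.257 by edgeR) and to Nek2, a centrosome kinase, in females (0.97, SE 0.29, adjusted p 0.120). Of regulators of RB, E2F and G1, 0 of 24 and 0 of 23 were called by edgeR, with 4 and 3 past an unadjusted p of 0.05 (16.7 and 13 percent). DESeq2 called 1 in males, Tfdp1, and 0 in females. The lowest p there belonged to Tfdp1, the partner of E2F factors, in males (0.42, SE 0.10, adjusted p 0.235 by edgeR) and to Cks1b in females (-0.54, SE 0.17, adjusted p 0.131). Of growth signals and early genes, 0 of 29 and 0 of 28 were called by edgeR or DESeq2, with 3 and 1 past an unadjusted p of 0.05 (10.3 and 3.57 percent). The lowest p belonged to Myc in males (1.30, SE 0.41, adjusted p 0.274 by edgeR) and to Wwtr1 in females (0.31, SE 0.12, adjusted p 0.212). The median log2 fold changes of the 5 lists, in the order replication, mitosis, G1 regulators, inhibitors and growth signals, were 0.17, 0.16, 0.12, 0.10 and -0.11 in males and 0.26, 0.20, 0.16, 0.10 and -0.05 in females.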

How the data were processed

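The authors deposited raw read counts per gene, FPKM values, log2 fold changes and p-values, in 1 table per sex. Reads were aligned with HISAT2 2.0.5 to mm39, per the submitters' processing notes, and poly-A libraries were made with dUTP, per the labels' protocols. The counter, the annotation release and any use of the strand are not given in the sources used here, which leaves genes on overlapping or opposite strands uncertain. The deposited FPKM values were used for levels per length and as an alternative, and the authors' deposited log2 and p-value columns only where named. Other normalized columns were not used here.

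The counts were fitted with edgeR 4.0.16 in R 4.3.3, each sex alone, over all genes kept by filterByExpr with TMM factors. The quasi-likelihood test was adjusted by Benjamini-Hochberg over all genes tested, with calls at an adjusted p under 0.05. CPM values carry TMM factors. The interaction used all 23 livers and the sex comparison the 11 controls, over the 22852 genes in both tables. Cpt1a was tested on log2(CPM + 1) with scipy 1.17.1. No pair of libraries among the 121 compared within a sex held identical values. The fitting steps were tested on simulated data.

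The 36 genes, the 5 cell cycle lists and the 10 marker lists were chosen with earlier results of these data known. Values per liver in control males, and lowest, median and highest in the other groups, are given for Mki67, Top2a, Cdk1, Ccnd1, Cdkn1a, Pcna and Mcm2. The 3 genes with the lowest p per sex are given in the same way, at least in that sex. Ccnb1 is given as ranges of counts. Cdkn2c and E2f1, called between the control sexes, are given as mean and SD. From the 5 cell cycle lists, genes called between LKO and control by edgeR or DESeq2 and the lowest p per list and sex are named. Genes shown beyond that rule, Foxm1 and Gins1 among them, were chosen after their values were seen. Alternatives were RLE factors, library size alone, no filter, at least 10 counts in every sample, DESeq2 1.42.0, limma 3.58.1 trend on log2(FPKM + 1) or log2(FPKM + 0.1), all 23 livers in 1 fit, a replicate block, and each liver left out. P-values set the difference between groups against the spread between these livers.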

Additional observations from a re-analysis of the deposited data

Results flagged for a closer look

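Single livers that stood far from the rest of their group in CPM, by Dixon's ratio of gap to range, were looked for in 192 groups of 5 or 6 livers. For independent normal values about 1 in 20 would be flagged. The genes here share livers and CPM was not transformed, so the count cannot be set against chance. In all, 18 values were flagged. In control males they were Pcna in replicate 2 (16.5, others 19.8 to 21.1), Rrm2 in replicate 6 (2.34, others 3.96 to 4.59) and Wwtr1 in replicate 4 (10.8, others 18.4 to 21.4). In LKO males all 3 belonged to replicate 3: Ccne1 at 5.21, Kif11 at 1.46 and Phlda3 at 20.8, where the others reached at most 2.86, 0.714 and 12.4.

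In control females, replicate 4 stood above the rest for Ccne1 (2.25, others at most 0.811), Mcm5 (9.14, others at most 3.45) and Mcm6 (10.3, others at most 5.77). Replicate 1 did so for Cdkn1a (25.3, others at most 13.9) and Cdc20 (2.73, others at most 1.36), and replicate 3 for Myc (50.5, others at most 15.4). In LKO females, replicate 3 stood above the rest for E2f1 (11.7, others at most 5.93), Mcm7 (24.4, others at most 16.8) and Gins1 (7.39, others at most 4.40). Replicate 4 did so for Cdk2 (14.8, others at most 11.5) and Wwtr1 (20.5, others at most 15.7), and replicate 5 for Mki67 (3.40, others at most 2.07).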

How the results depend on the processing

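The number of genes called in males was 1, and 2 with library size alone, with no filter or with the replicate block, 3 with at least 10 counts in every sample, 5 with all 23 livers in 1 fit, 114 by DESeq2 and 1 to 2 with 1 liver left out. In females it was 194, and 94 with all 23 livers, 334 with the replicate block, 559 by DESeq2 and 87 to 233 with 1 liver left out, the ends without control female replicates 5 and 4. The cause was not tested. The interaction called 97 genes by DESeq2 and 0 to 17 with 1 liver left out, the 17 without control male replicate 4. Of the 36 genes, 0 to 1 were called in females with 1 liver left out, the 1 being Mcm5. Between control sexes 1 was called with library size alone and 1 to 3 with 1 liver left out, 1 without control male replicate 1 or 3.

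The log2 fold change kept its sign under every alternative for 22 of 32 genes in males and 24 of 33 in females. With library size alone Gins1 in males was 0.0306 and Aurka 0.0336, and with the replicate block Aurka was 0.0862. With 1 liver left out, the male values that changed sign ran from -0.10 to 0.24 for Ccnd1, -0.0373 to 0.17 for Cdk2, -0.10 to 0.52 for Ccna2, -0.0212 to 0.13 for Cdkn1b, -0.18 to 0.10 for Gins1, -0.10 to 0.77 for Mki67, -0.0667 to 0.13 for Aurka, -0.0528 to 0.56 for Aurkb, -0.45 to 0.16 for Plk1, -0.17 to 0.34 for Cdc20, -0.0026 to 0.19 for Ung, -0.30 to 0.0010 for Nek2 and -0.0448 to 0.10 for Bax. Female values ran from -0.14 to 0.36 for Ccnd1, -0.10 to 0.28 for Ccna2, -0.12 to 0.14 for Ccnb2, -0.0081 to 0.10 for Cdkn1b, -0.0286 to 0.23 for Rrm2, -0.12 to 0.28 for Mki67, -0.0337 to 0.34 for Aurkb, -0.30 to 0.0461 for Kif11 and -0.12 to 0.46 for Cdc20. The interaction of Cdkn1a ran from -0.46 to 0.12.

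Replicate numbers are shared by the groups, but same-numbered livers did not deviate together throughout: the correlation ran from -0.372 to 0.416 over 5 male pairs, 1 of them over 0.1, and from -0.000325 to 0.189 over 6 female pairs, 5 of them over 0.1. In the block fit 0 of the 36 genes were called in either sex. Depth limits Ccnb1, Cdc6, Bub1 and, in males, Kif11, which did not pass the filter on low counts and were not tested.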
